A study of Mus musculus with 14 samples.

Results

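Immediate early genes are transcribed within minutes of a stimulus from factors already present in the cell, and they are also known to be switched on while a tissue is warmed and digested into single cells. Most of those considered here encode transcription factors of the AP-1 (FOS, FOSB, JUN, JUNB, ATF3) or EGR (EGR1, EGR2) families. DUSP1, a phosphatase of MAP kinases, and ZFP36 (tristetraprolin), which binds AU-rich mRNAs and speeds their decay, act as brakes on the same signals, and IER2 is a nuclear protein of less defined role. The 10 genes were taken by symbol, written in capitals as in the deposited count table, from the 24982 genes that it lists, and all 10 had enough reads to be tested among 13136 genes.

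RNA was sequenced from macrophages of the colonic and cecal lamina propria, sorted as living Ly6C- MHCII+ cells that carried CD64, CD11b and CD45 and lacked Ly6G and CD103, from C57BL/6 mice that were 5 weeks old. All mice carried Cdcs1, a locus that raises susceptibility to colitis. No knockout allele is named for 5 of them (WT), 4 were Il10ra -/- (IL10RAKO), 4 lacked both Il10ra and Ccr2 (Il10ra -/-, Ccr2 -/-, called DKO) and 1 was Ccr2 -/- alone (CCR2KO). The study asked whether the signature of macrophages without the IL-10 receptor depends on CCR2, the receptor that brings monocytes into tissue. Il10ra and Ccr2 were lost from the germline and so from every cell of the animal, and mice without Il10ra on this background develop colitis, so that loss of the receptor in macrophages and life in inflamed tissue cannot be told apart. In other experiments of the study WT littermates were heterozygous for both alleles, whereas the labels of these libraries name Cdcs1 alone. Epithelium was stripped with EDTA and the tissue was digested with collagenase at body temperature before the sort, in every genotype, and no library made without digestion was analysed here.

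Each library came from a single mouse and held between 12153000 and 21216468 counted reads. WT mouse 11 and the CCR2KO mouse, which has no replicate, are outside the main fit of 12 libraries and are given as values. WT mouse 11 has no column in the authors' table of pseudocounts, and it entered only the alternative fit of 13 libraries. It had 11670 genes with a read, against 13485 to 15450 in the 12 libraries tested. Its 6 epithelial markers summed to 2497 CPM (read counts scaled to a common library size), against at most 981.8 in those 12. IL10RA was at 217.0 to 379.6 CPM in the 4 WT mice tested and at 3.41 to 11.2 CPM in IL10RAKO and DKO mice, and CCR2 was at 3.92 to 6.68 CPM in DKO mice and at 361.0 to 702.1 CPM in the other genotypes tested. All 10 macrophage markers had reads in every library, and their sum was 20695 to 25967 CPM in WT, 30395 to 43028 CPM in IL10RAKO and 26558 to 35605 CPM in DKO mice. The largest part of these sums was H2-AB1, an MHC class II gene, with means of 15870, 24210 and 20220 CPM. Among the 10 markers CD14 rose in both comparisons with WT, and FCGR1 (CD64) and H2-AB1 rose in IL10RAKO mice. In DKO mice MERTK rose, and ADGRE1 (F4/80) and CX3CR1 fell. Transcripts of other cells also differed between the genotypes: 6 fibroblast markers summed to 294.2 to 577.1 CPM in WT, 15.0 to 53.7 CPM in IL10RAKO and 16.1 to 67.0 CPM in DKO mice, and 4 smooth muscle markers to 22.7 to 137.5, 4.76 to 10.3 and 3.26 to 9.00 CPM. The 6 neutrophil markers, of which S100A9 had no read in any of the WT mice tested, summed to 75.2 to 122.1 CPM in WT, 137.3 to 304.0 CPM in IL10RAKO and 155.6 to 263.2 CPM in DKO mice. The largest part of these sums came from CSF3R, which macrophages also express (means of 87.3, 197.7 and 181.3 CPM). The 4 monocyte markers summed to 120.0 to 182.3, 366.8 to 1045 and 430.1 to 698.0 CPM in the same order. The 5 mast cell markers, of which 1 had reads in every mouse of a genotype, summed to 10.6 to 33.7, 70.3 to 96.7 and 75.4 to 120.3 CPM. The sums of 5 dendritic cell markers overlapped, and 2 of these markers rose in IL10RAKO and 1 in DKO mice. In DKO mice 1 T and NK cell marker also rose and 1 endothelial marker fell. Fibroblast and smooth muscle cells are known to express immediate early genes too, and in bulk RNA a change in the cells that contribute cannot be told apart from a change of RNA per cell.

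The promoters of the members were searched for exact matches to classical response elements near the start site. Elements further from the start site, or that differ from the letters searched, would be missed. RefSeq promoter windows (GRCm38.p6, from 250 bases before to 50 after the start site) matched 8 of the 10 genes, with none for EGR1 and IER2. The 200 bases before the start site are given 5′ to 3′ on the strand of the gene for JUN and ATF3, which fell in at least 1 knockout group, and for EGR2 and DUSP1, which rose in at least 1, with matches in capitals. Capitals mark the CArG box bound by serum response factor, the cAMP response element TGACGTCA, its short form TGACGT or ACGTCA, or the variant TGACATCA that AP-1 dimers bind in the JUN promoter.
JUN, chr4:95052223-95052422, minus strand: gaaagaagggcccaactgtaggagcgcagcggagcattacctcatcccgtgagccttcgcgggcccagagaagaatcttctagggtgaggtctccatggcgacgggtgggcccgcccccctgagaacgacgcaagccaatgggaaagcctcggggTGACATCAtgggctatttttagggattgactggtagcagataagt
EGR2, chr10:67537669-67537868, plus strand: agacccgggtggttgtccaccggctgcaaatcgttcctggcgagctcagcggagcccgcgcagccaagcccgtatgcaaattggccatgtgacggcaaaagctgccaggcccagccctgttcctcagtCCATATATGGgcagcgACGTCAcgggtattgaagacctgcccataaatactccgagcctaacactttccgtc
ATF3, chr1:191183334-191183533, minus strand: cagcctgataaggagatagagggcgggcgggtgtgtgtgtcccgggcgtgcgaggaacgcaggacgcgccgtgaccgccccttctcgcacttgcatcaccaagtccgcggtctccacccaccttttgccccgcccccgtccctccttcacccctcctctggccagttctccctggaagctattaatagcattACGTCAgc
DUSP1, chr17:26508473-26508672, minus strand: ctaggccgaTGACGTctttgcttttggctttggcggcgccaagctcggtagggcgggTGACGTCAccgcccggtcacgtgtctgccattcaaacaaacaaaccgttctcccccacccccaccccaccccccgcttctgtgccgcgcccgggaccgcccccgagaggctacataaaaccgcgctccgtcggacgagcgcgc

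The variant site of JUN began 45 bases before the start site and the CArG box of EGR2 72 bases before it, followed by a short element at 56 bases. DUSP1 carried the full element at 143 bases and a further short form at 191 bases, and ATF3 a short form at 8 bases. Searched on both strands over the 300 bases of a window, the CArG box was found in 2 of the 8 members (EGR2 and ZFP36, whose RefSeq start lies 1025 bases from that of its principal transcript) and in 1.63% of 32851 windows of all genes. The full element was found in 1 of 8 members (DUSP1) against 1.79% of windows, the short form, which lies inside the full one, in 4 of 8 (FOS, EGR2, ATF3, DUSP1) against 7.51%, and the variant in 1 of 8 (JUN) against 3.62%. The AP-1 site TGANTCA was found in none of the 8 members and in 7.81% of windows. A match describes these letters only, and both the members that rose and those that fell carried matches.

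The 10 genes together took a large part of the RNA. Of all counted reads they held between 3.93% and 4.39% in WT, between 2.90% and 3.70% in IL10RAKO and between 2.99% and 3.61% in DKO libraries (n = 4 each). The share was thus higher in each WT mouse than in any IL10RAKO or DKO mouse. After scaling of library sizes by TMM (trimmed mean of M values), which sets the bulk of genes level between libraries, the summed members overlapped between genotypes, with 33377 to 40430 CPM in WT, 31776 to 43355 CPM in IL10RAKO and 29529 to 40470 CPM in DKO mice. All CPM below are on the TMM scale.

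Levels between genes were compared per kilobase of the principal coding transcript. In WT mice FOS (3389 ± 289.9 CPM per kb, mean ± SD, n = 4) and JUNB (3314 ± 552.6) came first, and their ranges overlapped. DUSP1 (2887 ± 352.1) and ZFP36 (2299 ± 214.7) followed, whose ranges overlapped with each other and, for DUSP1, with that of JUNB, with JUN (1618 ± 167.2) below the range of ZFP36. ATF3, EGR1 and IER2 came next at 960.4 ± 68.6, 626.6 ± 40.4 and 594.5 ± 61.0 CPM per kb, where the ranges of EGR1 and IER2 overlapped. FOSB (72.3 ± 37.9) and EGR2 (36.6 ± 7.55) were the lowest. In WT mice FOS ranked as number 10 among the tested genes with a transcript length, JUNB as 11 and DUSP1 as 13. In IL10RAKO mice the order began with DUSP1 (4213 ± 631.9 CPM per kb), JUNB (3623 ± 533.1), FOS (3338 ± 843.9) and ZFP36 (3012 ± 292.2), of which each neighbouring pair overlapped, and the same order held in DKO mice. In both knockout groups EGR2 (122.7 ± 20.5 and 150.0 ± 49.9 CPM per kb) stood above FOSB (47.7 ± 18.5 and 51.3 ± 16.6), in every mouse.

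**Figure D1:**
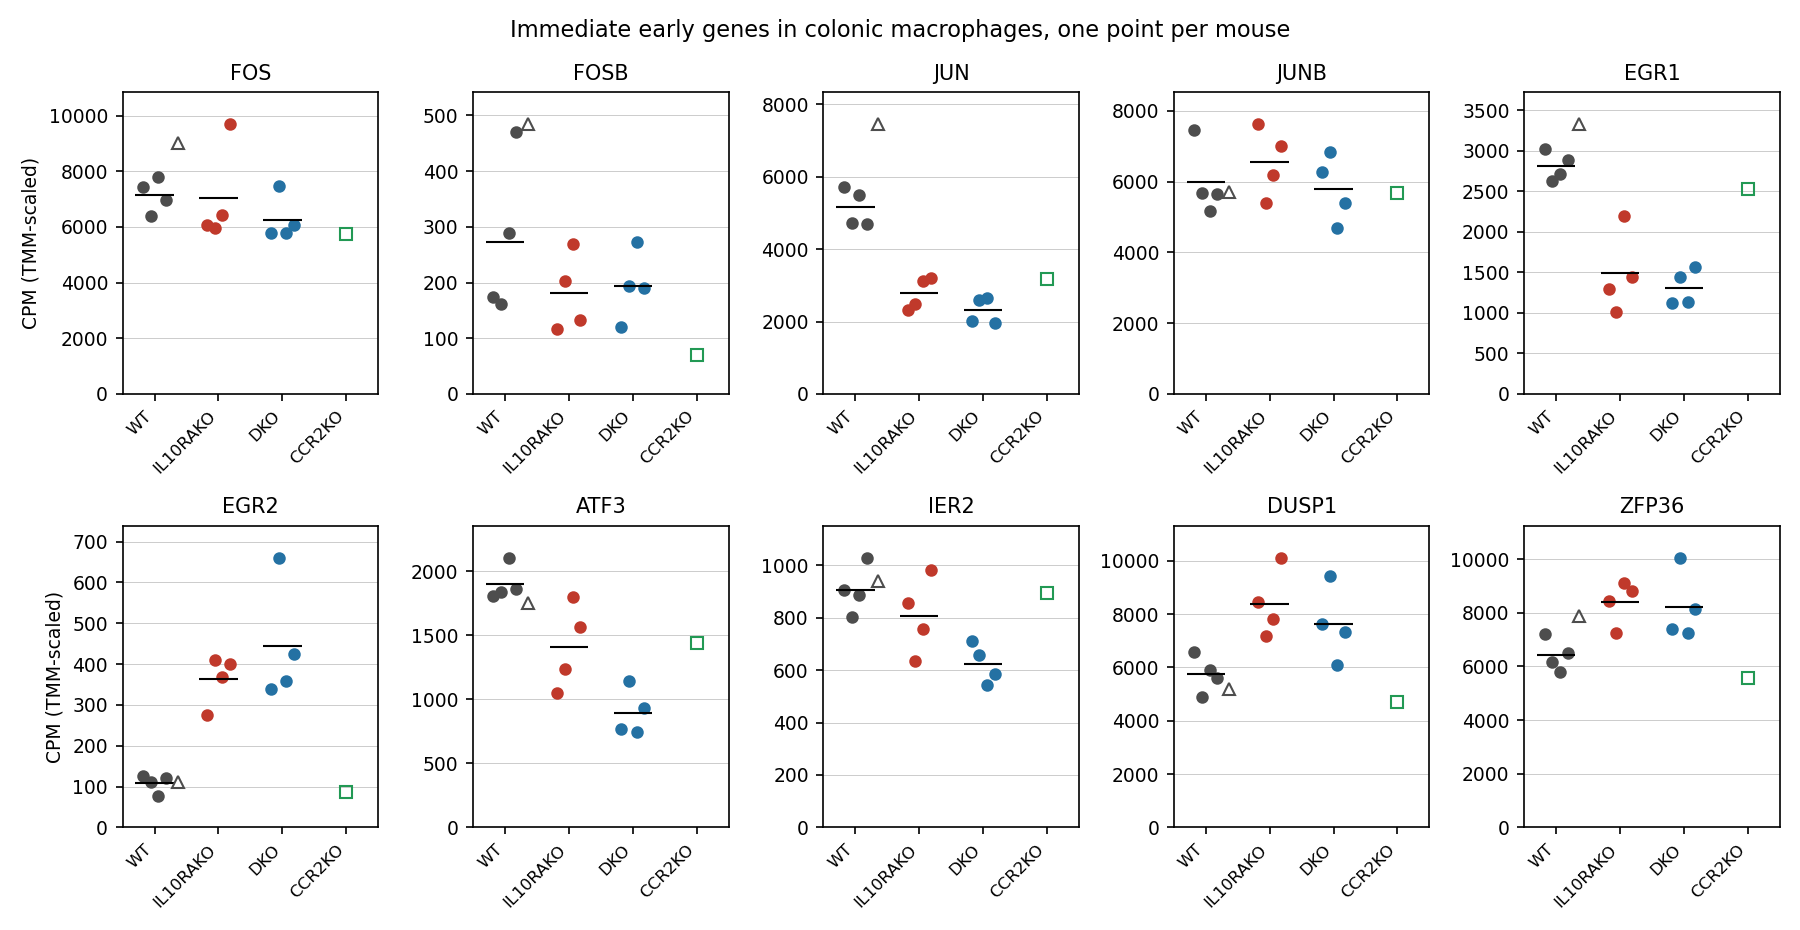
Level of each gene in CPM on the TMM scale (vertical axes start at 0) for each mouse, by genotype, with a bar at the mean of the 4 mice tested. The triangle is WT mouse 11 and the square the CCR2KO mouse, neither of which is in the main fit. WT mice lie above the IL10RAKO and DKO mice for JUN and EGR1 and below them for EGR2.

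Between IL10RAKO and WT mice EGR2 and DUSP1 rose, JUN and EGR1 fell, and the other 6 members did not pass the test (edgeR quasi-likelihood test, adjusted p under 0.05 over all tested genes). The 4 of 10 called compare with 15.8% of all genes tested in this comparison and with 24.9% of the 3588 genes whose mean was at least 50 CPM, as it was for all 10 members. The 2 that rose compare with 8.7% of genes that rose and the 2 that fell with 7.1% that fell. Between DKO and WT mice 5 of 10 were called against 18.5% of all genes and 27.6% of those with at least 50 CPM: EGR2 rose (9.23% of genes did), and JUN, EGR1, ATF3 and IER2 fell (9.22%). Among the 12 libraries tested the groups did not overlap for 6 members in each comparison with WT, against 18.2% of genes in IL10RAKO and 22.2% in DKO mice. Both comparisons use the same 4 WT mice. With library totals in place of TMM, which moved the median log2 fold change of all genes from -0.07 to -0.38 in IL10RAKO and from -0.06 to -0.32 in DKO mice, 1 member rose and 4 fell in IL10RAKO, and 1 rose and 5 fell in DKO mice.

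JUN, the leucine zipper protein that pairs with FOS proteins, was at 5727, 4707, 5500.0 and 4701 CPM in WT mice 4, 5, 10 and 13. In IL10RAKO mice 1, 2, 7 and 8 it was at 2323, 2478, 3113 and 3208 CPM, and in DKO mice 3, 9, 12 and 14 at 2021, 2586, 2657 and 1953 CPM. All 8 knockout mice were thus below all WT mice. JUN fell by 0.89 on the log2 scale in IL10RAKO mice (SE 0.17, adjusted p = 0.00205, edgeR) and by 1.16 in DKO mice (SE 0.17, adjusted p = 0.000236). The gene is a single exon at chr4:95049034-95052222 (GRCm38, GENCODE vM21, minus strand) and overlaps the antisense gene Junos. Because the strand setting of the counting was not given in the sources used here, reads of the pair cannot be told apart.

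JUNB, a second JUN protein with weaker activation of many AP-1 targets, did not follow JUN. It was at 7453, 5693, 5178 and 5657 CPM in WT mice 4, 5, 10 and 13, at 7619.9, 5403, 6193 and 6999.7 CPM in IL10RAKO mice 1, 2, 7 and 8, and at 6272, 6844, 4701 and 5397 CPM in DKO mice 3, 9, 12 and 14. The 3 ranges overlapped throughout. The log2 fold change against WT was 0.13 (95% confidence interval -0.24 to 0.50, adjusted p = 0.671, edgeR) in IL10RAKO and -0.05 (-0.42 to 0.32, adjusted p = 0.886) in DKO mice. Its sign turned under 2 of 24 alternatives in each comparison. JUNB overlaps Prdx2 on the opposite strand, with the same limit on strand as for JUN.

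The reads of JUN per read of JUNB give the pair within a library, where scaling between libraries cancels. The ratio was 0.768 to 1.06 in the 4 WT mice and 0.305 to 0.503 in IL10RAKO mice, with 0.322 to 0.565 among DKO mice. WT mouse 11 stood at 1.31 and the CCR2KO mouse at 0.559, which is within the DKO range and below all WT mice. This ratio and those that follow were chosen after the values had been seen and carry no test.

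FOS and FOSB, the partners of the JUN proteins on DNA, showed no change that passed the test. FOS was at 7429, 6383, 7798 and 6965 CPM in WT mice 4, 5, 10 and 13, and at 6063, 5958, 6439 and 9687 CPM in IL10RAKO mice 1, 2, 7 and 8. In DKO mice 3, 9, 12 and 14 it was at 5776, 7455, 5767 and 6069 CPM. The log2 fold change was -0.02 (95% confidence interval -0.40 to 0.36, adjusted p = 0.950, edgeR) in IL10RAKO, and -0.21 without mouse 8, which stood above every other mouse tested. In DKO mice it was -0.19 (-0.57 to 0.19), which did not pass, and library totals in place of TMM gave -0.45 and an adjusted p of 0.0387.

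FOSB was far less abundant than FOS and spread more. It was at 173.4, 160.8, 288.2 and 470.6 CPM in WT mice 4, 5, 10 and 13, at 116.5, 203.2, 268.6 and 132.9 CPM in IL10RAKO mice 1, 2, 7 and 8, and at 119.8, 193.6, 273.1 and 189.5 CPM in DKO mice 3, 9, 12 and 14. All groups overlapped. The log2 fold change was -0.60 (95% confidence interval -1.36 to 0.16, adjusted p = 0.288, edgeR) in IL10RAKO and -0.49 (-1.26 to 0.27, adjusted p = 0.372) in DKO mice, and both intervals reach below -1 on the log2 scale.

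EGR1 and EGR2 moved in opposite directions, although both are zinc finger factors that bind nearly the same DNA sequence. EGR1 was at 3026, 2621, 2707 and 2885 CPM in WT mice 4, 5, 10 and 13, a range narrower than in the other genotypes. In IL10RAKO mice 1, 2, 7 and 8 it was at 1299, 1014, 2195 and 1444 CPM, and in DKO mice 3, 9, 12 and 14 at 1121, 1437, 1128 and 1561 CPM. Every knockout mouse was below every WT mouse. EGR1 fell by 0.92 on the log2 scale in IL10RAKO (SE 0.21, adjusted p = 0.00836, edgeR) and by 1.10 in DKO mice (SE 0.21, adjusted p = 0.00226).

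EGR2, which in macrophages is known as a factor of alternative activation, was at 125.5, 110.9, 76.2 and 121.2 CPM in WT mice 4, 5, 10 and 13. It was at 276.3, 409.8, 368.3 and 400.3 CPM in IL10RAKO mice 1, 2, 7 and 8, and at 338.0, 660.0, 357.7 and 423.5 CPM in DKO mice 3, 9, 12 and 14. The lowest knockout mouse was thus above the highest WT mouse. EGR2 rose 3.35-fold in IL10RAKO (log2 fold change 1.75, SE 0.23, adjusted p = 0.000163, edgeR) and 4.10-fold in DKO mice (log2 fold change 2.04, SE 0.24, adjusted p = 3.99e-05), the largest change of any member in either comparison. The gene lies at chr10:67535475-67542188 (GRCm38, plus strand), and its principal transcript has 2 exons.

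The EGR pair was also taken within a library. There were 23.6 to 35.5 EGR1 reads for each EGR2 read in the 4 WT mice tested and 2.48 to 5.96 in IL10RAKO mice, with 2.18 to 3.69 among DKO mice. WT mouse 11 (29.6) and the CCR2KO mouse (29.2) were both within the range of the other WT mice. NAB1, a corepressor that binds EGR proteins, rose in both comparisons (log2 fold change 0.65, adjusted p = 0.0136, and 0.73, adjusted p = 0.00579, edgeR), 1 of the 2 NAB genes tested.

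**Figure D2:**
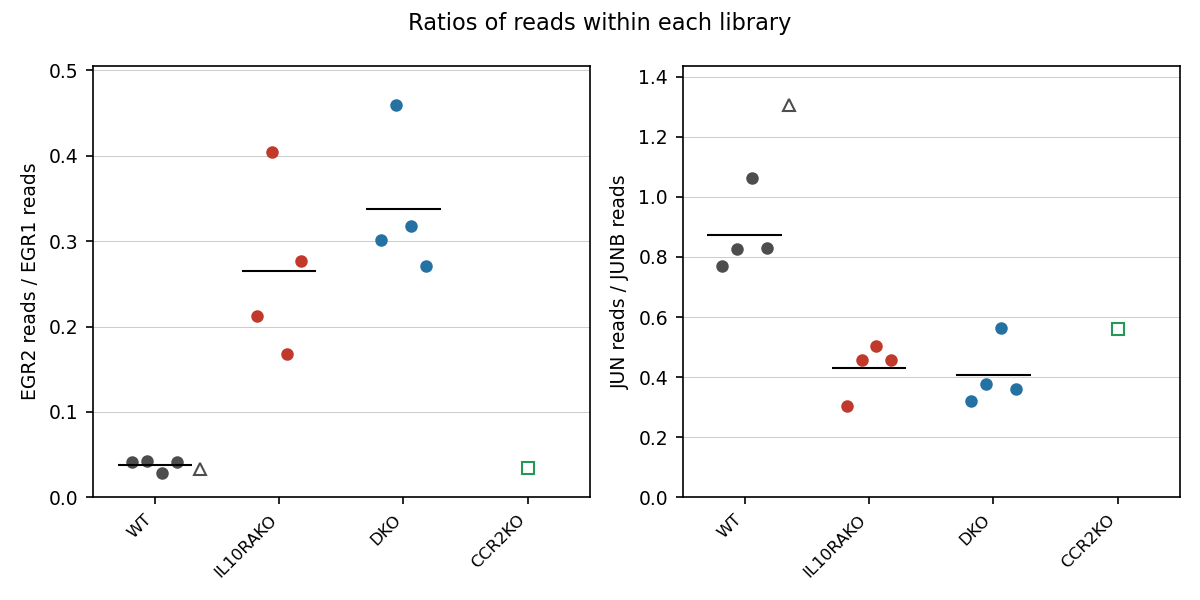
Reads of EGR2 per read of EGR1 (left) and of JUN per read of JUNB (right) in each library, on axes that start at 0, with a bar at the mean of the 4 mice tested per genotype. The triangle is WT mouse 11 and the square the CCR2KO mouse; the WT libraries lie apart from the IL10RAKO and DKO libraries in both panels, and the CCR2KO mouse lies with the WT mice on the left and with the knockout mice on the right.

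ATF3, a stress-induced member of the ATF/CREB family that can repress inflammatory genes, was at 1811, 1838.5, 2107 and 1866 CPM in WT mice 4, 5, 10 and 13. It was at 1049, 1236, 1802 and 1563 CPM in IL10RAKO mice 1, 2, 7 and 8, and at 771.2, 1144, 743.8 and 931.9 CPM in DKO mice 3, 9, 12 and 14. ATF3 fell by 1.09 on the log2 scale in DKO mice (SE 0.19, adjusted p = 0.00116, edgeR). In IL10RAKO mice the log2 fold change was -0.43 (95% confidence interval -0.84 to -0.03, adjusted p = 0.144), with the highest mouse just under the lowest of the 4 WT mice tested but above WT mouse 11 (1750.4 CPM), and ATF3 was called there only with library totals in place of TMM (-0.75, adjusted p = 0.00991). The difference between DKO and IL10RAKO mice was -0.65 (-1.06 to -0.25, adjusted p = 1.00), and the ranges of these groups overlapped.

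IER2 was at 903.7, 803.3, 884.7 and 1028 CPM in WT mice 4, 5, 10 and 13, at 855.3, 632.9, 758.3 and 981.0 CPM in IL10RAKO mice 1, 2, 7 and 8, and at 710.2, 656.6, 542.4 and 584.6 CPM in DKO mice 3, 9, 12 and 14. DKO mice were all below WT mice, whereas IL10RAKO mice overlapped with both. IER2 fell by 0.54 on the log2 scale in DKO mice (SE 0.16, adjusted p = 0.0317, edgeR). This call was lost without WT mouse 10 (adjusted p = 0.0587) or 13 (0.0941) and without DKO mouse 9 (0.0653), 12 (0.0965) or 14 (0.0912). In IL10RAKO mice the log2 fold change was -0.17 (95% confidence interval -0.51 to 0.18, adjusted p = 0.540).

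Both feedback genes were higher on average in the knockout groups, and 1 call was made. DUSP1 was at 6584, 4895, 5904 and 5601 CPM in WT mice 4, 5, 10 and 13, at 8442, 7190.3, 7797.5 and 10108 CPM in IL10RAKO mice 1, 2, 7 and 8, and at 7618, 9445, 6103 and 7326 CPM in DKO mice 3, 9, 12 and 14. IL10RAKO mice were all above WT mice, and DKO mouse 12 was within the WT range. DUSP1 rose by 0.55 on the log2 scale in IL10RAKO mice (SE 0.17, adjusted p = 0.0428, edgeR), while in DKO mice the value was 0.41 (95% confidence interval 0.04 to 0.77, adjusted p = 0.115). The IL10RAKO call was lost under 13 of 24 alternatives, among them those without WT mouse 5 (adjusted p = 0.119), 10 (0.0777) or 13 (0.0987), IL10RAKO mouse 1 (0.0781) or 8 (0.114), or DKO mouse 14 (0.0548). The annotated span of DUSP1 covers part of Ergic1 on the other strand, with the same limit on strand.

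ZFP36 was at 7199, 6165, 5789.7 and 6508 CPM in WT mice 4, 5, 10 and 13, at 8427, 7252, 9099 and 8831 CPM in IL10RAKO mice 1, 2, 7 and 8, and at 7405, 10048.5, 7257 and 8139 CPM in DKO mice 3, 9, 12 and 14. Every IL10RAKO and DKO mouse was above the 4 WT mice tested, by a narrow margin in the lowest, whereas WT mouse 11 (7899 CPM) lay inside the range of both groups. The log2 fold change was 0.39 (95% confidence interval 0.07 to 0.71, adjusted p = 0.101, edgeR) in IL10RAKO and 0.36 (0.03 to 0.68, adjusted p = 0.121) in DKO mice, neither of which passed the test, and only DESeq2 called it in IL10RAKO mice (adjusted p = 0.0427). The gene overlaps the antisense gene Gm44710. Per read of ZFP36 there were between 0.252 and 0.364 ATF3 reads in the 4 WT mice tested, between 0.124 and 0.198 in IL10RAKO and between 0.103 and 0.115 in DKO libraries. The 3 groups tested lay apart in this ratio, by a narrow margin between DKO (at most 0.1145) and IL10RAKO mice (at least 0.1244). No share for ratios of other genes is given beside it. WT mouse 11 (0.222) lay below the other WT mice and above the IL10RAKO mice, and the CCR2KO mouse (0.258) within the range of the WT mice tested. FOSB reads per FOS read overlapped between all groups (0.0233 to 0.0676 in WT, 0.0137 to 0.0417 in IL10RAKO, 0.0207 to 0.0474 in DKO mice). DUSP1 reads per JUN read were lower in WT (1.04 to 1.19) but overlapped between IL10RAKO (2.505 to 3.63) and DKO mice (2.30 to 3.77).

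**Figure D3:**
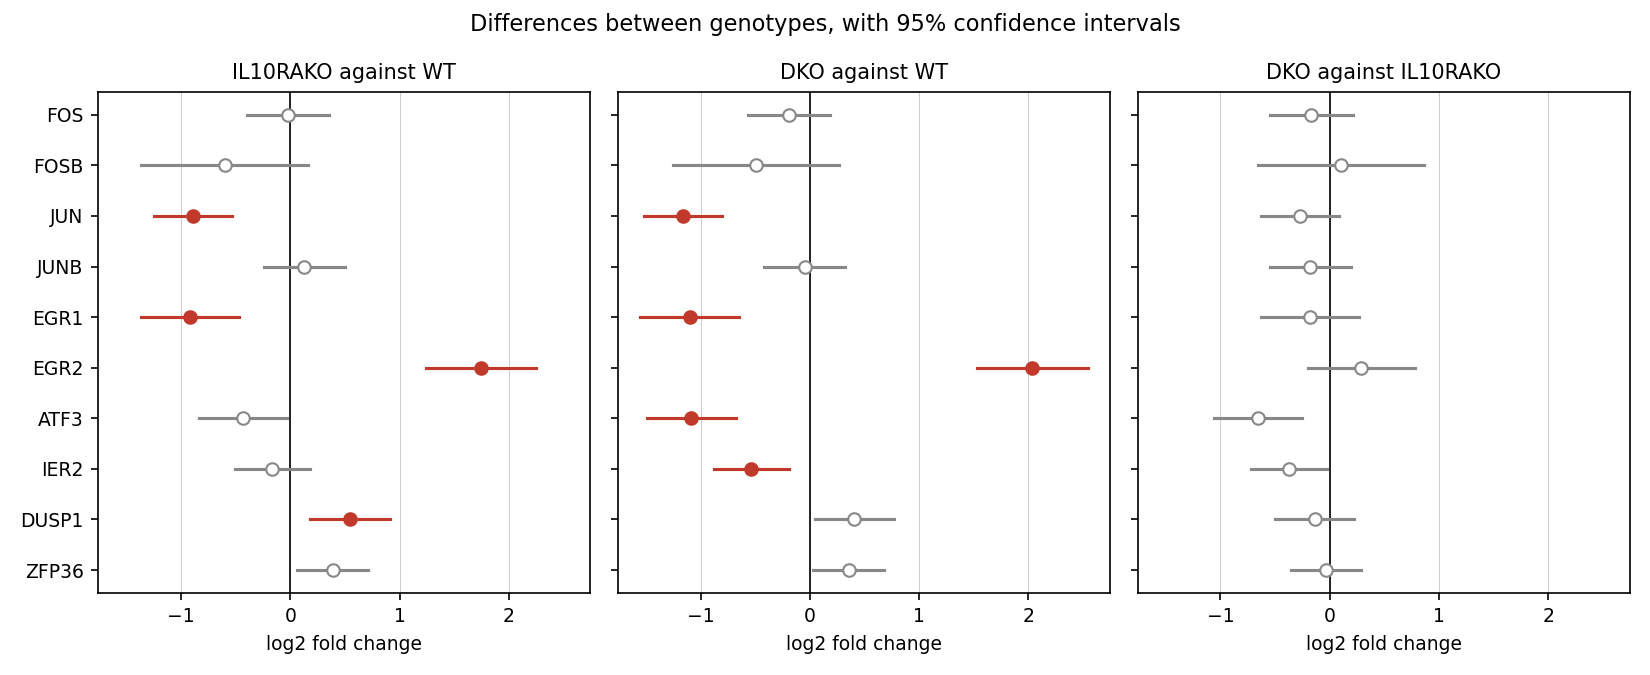
Log2 fold change (horizontal axis) of the 10 genes in the 3 comparisons, with 95% confidence intervals from the edgeR fit of 12 libraries. Filled red points passed the test at an adjusted p under 0.05 and open grey points did not; EGR2 lies furthest to the right and JUN, EGR1 and ATF3 to the left in DKO mice, and no point is filled between DKO and IL10RAKO mice.

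None of the 10 members was called between DKO and IL10RAKO mice by edgeR, DESeq2 or the edgeR exact test, where 0.0457% of all genes were called by edgeR, and 2 of the 10 (ATF3 and IER2) had an unadjusted p under 0.05. No member had groups without overlap, against 2.41% of all genes. The intervals show how much could have been missed. For EGR1 the log2 fold change was -0.18 (95% confidence interval -0.63 to 0.27), for EGR2 0.29 (-0.20 to 0.78) and for JUN -0.27 (-0.62 to 0.08). For ZFP36 the interval was -0.36 to 0.29, for DUSP1 -0.50 to 0.23 and for FOSB, the widest, -0.66 to 0.87. For ATF3 (-0.65, -1.06 to -0.25) and IER2 (-0.37, -0.72 to -0.03) the interval lay below 0, without adjustment for the number of genes. The intervals of all other members include 0.

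The CCR2KO mouse, the sole library without Ccr2 and with Il10ra, gives values but no comparison. Its EGR2 level of 86.5 CPM was within the WT range, and its EGR1 level of 2524 CPM was just under it and above every IL10RAKO and DKO mouse. JUN at 3173 CPM and ATF3 at 1439.7 CPM were below all WT mice and within the IL10RAKO ranges. FOS (5748 CPM), FOSB (70.0 CPM), DUSP1 (4707 CPM) and ZFP36 (5578 CPM) were below every mouse tested. This library held 681.1 CPM of the fibroblast markers, more than any other. It also held the most of the B and plasma cell markers, 2610.6 CPM against at most 1879.4 CPM in the libraries tested. Its monocyte markers summed to 382.5 CPM, above the range of 120.0 to 182.3 CPM in the WT mice tested.

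Transcripts of fibroblasts differed between the genotypes, as did the members that were called. All 6 fibroblast markers were called lower in both comparisons with WT. With the mean of these markers as a covariate none of the 10 members was called in either comparison (29 and 61 of all genes were), and the JUN difference was then -1.60 (adjusted p = 0.172, edgeR) and -1.85 (adjusted p = 0.0612) on the log2 scale, that of EGR1 -0.81 and -0.996, and that of EGR2 1.15 and 1.46. WT and knockout mice do not overlap in these markers, so that the markers and the genotype cannot be told apart. The values of each mouse are plotted against the markers, and 4 mice per genotype allow no test of the relation within a genotype. The part of neutrophil, monocyte, mast cell and dendritic cell transcripts in these differences was not tested.

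**Figure D4:**
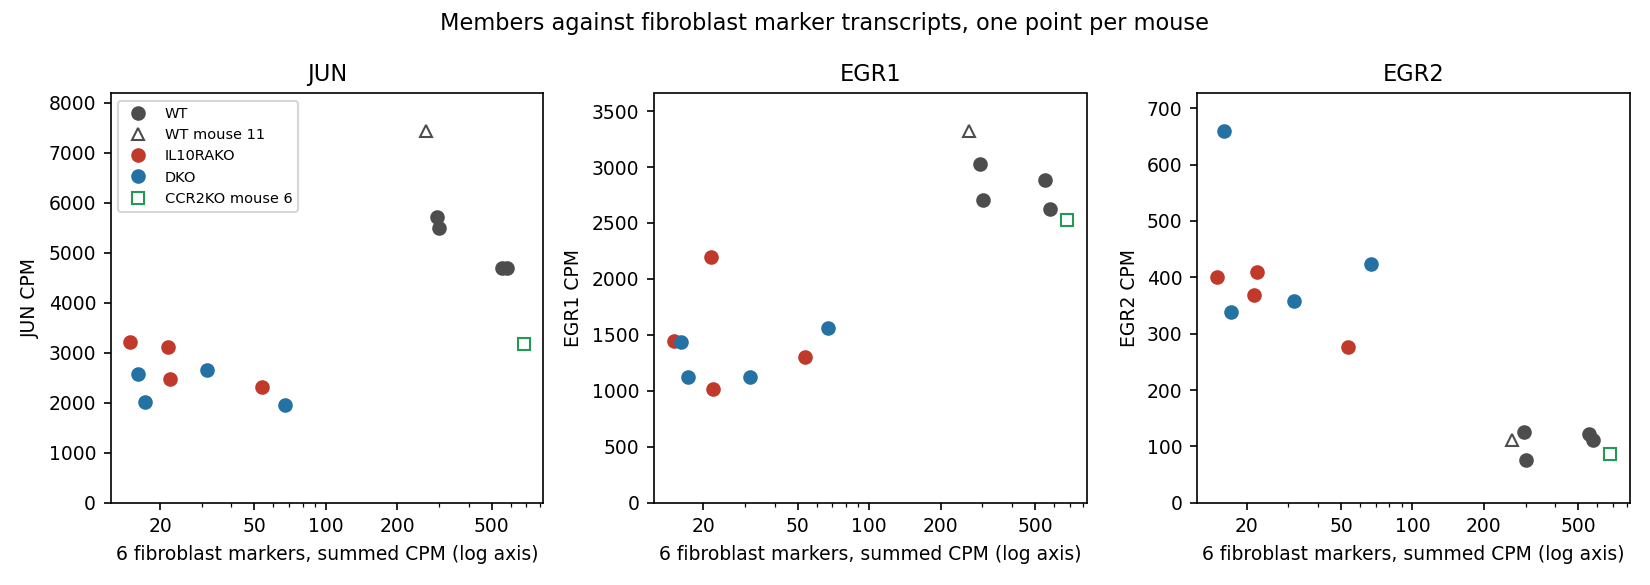
JUN, EGR1 and EGR2 levels in CPM (vertical axes from 0) against the summed CPM of 6 fibroblast markers (log axis), 1 point for each mouse. WT mice lie to the right, at 294.2 CPM of the markers or more among those tested, and the IL10RAKO and DKO mice at 67.0 CPM or less.

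Mouse by mouse the members partly shifted together. After the mean of each genotype was subtracted, 40 of the 45 pairs of members had a Pearson r above 0 over the 12 libraries and 16 had one above 0.5, with a median of 0.35 and a range from -0.61 to 0.81; with genotypes left in, the median was 0.14. The libraries share cell preparation, depth and scaling, and these values are descriptions. No share for pairs of other genes is given beside them. DKO mouse 9 was above its genotype mean for all 10 members and IL10RAKO mouse 8 for 9 of 10. WT mouse 5 was above it for 1 member (EGR2), and IL10RAKO mouse 2 and DKO mouse 12 for 2 members each. A lower TMM factor gives higher CPM, and DKO mouse 9 (0.893) and IL10RAKO mouse 8 (0.851) had the lowest of their genotypes. WT mouse 5 (1.18) and DKO mouse 12 (1.01) had the highest, whereas IL10RAKO mouse 2 (0.913) lay below IL10RAKO mice 1 and 7. Of counted reads the members held 3.61% in DKO mouse 9, the most in that genotype, and 3.69% in IL10RAKO mouse 8, beside 3.70% in IL10RAKO mouse 7. The part of scaling in these shifts was not tested. FOSB had the widest spread within genotypes (SD 0.60 on the log2 scale, with 95.04% of 3588 genes of at least 50 CPM spreading less) and ZFP36 the narrowest (0.17, 8.95%). Over the members the median SD was 0.23, against 0.27 for all these genes.

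**Figure D5:**
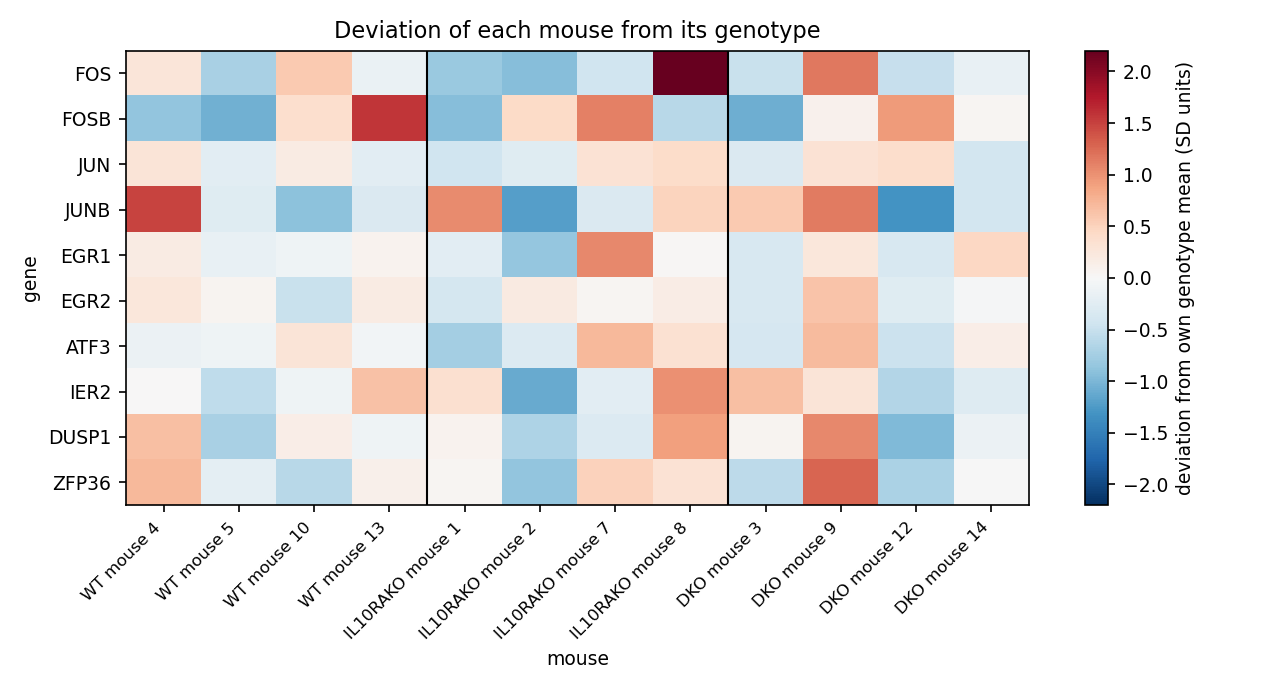
Deviation of each of the 12 mice tested (columns, grouped by genotype) from the mean of its own genotype for each gene (rows), in units of the SD of log2 CPM over the 12 libraries; red is above and blue below the mean. The column of DKO mouse 9 is red throughout, and FOS in IL10RAKO mouse 8 is the strongest deviation in these units, at 2.199. This SD includes differences between genotypes, so that deviations of members with such differences appear smaller.

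Other genes were ranked by how closely their levels over the 12 libraries followed the mean of the members. The closest were C5AR1, the receptor of complement C5a (r = 0.91), the lysosomal protease CTSB (0.85), METRNL (0.85), the lysosomal glycoprotein CD68 (0.82) and C1QB, a chain of complement C1q (0.79), among 8324 genes of at least 10 CPM. With genotype means subtracted they were PLTP (0.93), RAB7B (0.90), CTSB (0.88), FANCE (0.88) and C5AR1 (0.87). These are the highest of many correlations over 12 libraries.

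Other genes of the same early response were counted from lists, to be read against the 8.7% of all genes that rose and 7.1% that fell in IL10RAKO mice, and 9.23% and 9.22% in DKO mice. Of 41 other immediate early genes tested, 16 rose and 7 fell in IL10RAKO mice, and 14 rose and 9 fell in DKO mice, and the median difference on the log2 scale was 0.37 and 0.39, beside -0.07 and -0.06 over all genes. SGK1, a kinase induced by serum and glucocorticoids, rose from 397.2 ± 81.7 CPM in WT to 2142 ± 689.7 in IL10RAKO and 2667 ± 383.8 in DKO mice (mean ± SD, n = 4). The interferon regulatory factor IRF1 rose from 344.4 ± 80.6 to 1162 ± 255.8 and 1150 ± 243.2 CPM, and the kinase PLK3 from 158.5 ± 9.44 to 333.9 ± 41.0 and 448.3 ± 93.5 CPM. CYR61 (log2 fold change -4.10 in IL10RAKO and -3.09 in DKO mice) and CTGF (-4.13 and -2.75), matricellular proteins made by stromal cells, fell in both, beside the fall of the fibroblast markers. KLF2, a Krüppel-like factor of quiescent cells (-0.95 and -1.17), CEBPD, or C/EBP delta (-0.80 and -1.18), and GADD45G, a growth arrest gene (-0.74 and -1.17), also fell in both. None of the 41 was called between DKO and IL10RAKO mice by edgeR, and 5 had an unadjusted p under 0.05.

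Among 21 AP-1 and basic leucine zipper partners 5 rose and 3 fell in IL10RAKO, and 4 rose and 3 fell in DKO mice, beside shares of all genes of 8.7% and 7.1%, and 9.23% and 9.22%. BATF2 (log2 fold change 4.00 and 3.91), FOSL1 (3.36 and 3.18) and NFE2L2, the regulator of the antioxidant response (1.10 and 1.07), rose in both. MAF, a factor of resident macrophages (-1.85 and -2.11), BATF3 (-0.66 and -1.42) and JUND, the remaining JUN protein (-0.64 and -0.73), fell in both. Levels of FOSL1 were low, at 1.20 CPM in WT and 12.7 and 11.2 CPM in the knockout groups on average. The lists share genes, which are counted in each. FOSL1, FOSL2, JUND and MAFF are also among the other immediate early genes above. SRF, IER3 and MCL1 are among those genes and in a list below, and CREB1 is both an AP-1 partner and an upstream gene.

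Of 22 kinases and serum response factors that lie upstream of the members, 4 rose in IL10RAKO and 3 in DKO mice, and none fell. These included MAP2K4 (log2 fold change 0.91 and 0.89), MAPK9 (0.68 and 0.79) and MAPKAPK2 (0.58 and 0.55). Of 11 other dual-specificity phosphatases, DUSP5 (1.78 and 1.85), DUSP16 (1.51 and 1.36) and DUSP2 (0.92 and 0.67) rose in both, and DUSP7 fell by 0.90 in IL10RAKO mice. Of 13 relatives of ZFP36 and mRNA decay factors, CNOT7, a deadenylase subunit, alone rose, in both comparisons, a share near that of all genes. The median difference on the log2 scale in IL10RAKO and DKO mice was 0.09 and 0.04 for the AP-1 partners, 0.07 and 0.16 for the upstream genes, 0.07 and 0.15 for the phosphatases and 0.10 and 0.26 for the decay factors.

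Among 16 AU-rich mRNAs known to be bound by ZFP36, 9 rose and 1 fell in IL10RAKO, and 8 rose and 1 fell in DKO mice, and the median difference on the log2 scale was 1.48 and 1.27. IL1A rose by 4.43 and 4.40 on the log2 scale, IL6 by 4.15 and 4.09, and PTGS2, the inducible cyclooxygenase, by 3.58 in both. CCL2, a ligand of CCR2, fell (-2.08 and -3.51). Decay of mRNA was not measured. Of 19 heat shock and other genes linked to tissue digestion none rose, beside 8.7% and 9.23% of all genes in IL10RAKO and DKO mice. In IL10RAKO mice 2 fell and in DKO mice 6, beside 7.1% and 9.22% of all genes, and the medians were -0.32 and -0.91. HSPB1, a small heat shock protein (log2 fold change -1.76 and -2.27), and MT2, a metallothionein at low levels in WT (11.8 CPM), fell in both (-1.64 and -1.72 for MT2). BAG3, a cochaperone, fell by 1.65 in DKO mice, while in IL10RAKO mice its value was -0.91 (adjusted p = 0.167, edgeR). The part of digestion in the differences between members was not tested.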

How the data were processed

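RNA of sorted colonic macrophages was made into cDNA with SmartSeq v4 and sequenced as read pairs. Per the submitters' processing notes, the authors used bcl2fastq 2.20, STAR 2.5.1b (mm10) and edgeR 3.34.0. What the authors deposited is a table of raw counts, not normalized, with 24982 genes and 14 libraries. The annotation, strand setting and treatment of multimapping reads are not given in the sources used here. A second deposited table, of edgeR pseudocounts, was not used apart from its header, which names the 12 libraries tested here. The reason for the absence of WT mouse 11 from it is not given.

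The fit was made with edgeR 4.0.16 (filterByExpr with a minimum count of 10, TMM, glmQLFit with the deviance of edgeR 3, glmQLFTest) and limma 3.58.1 in R 4.3.3. Benjamini-Hochberg adjustment ran over all 13136 tested genes, with a threshold of 0.05. DESeq2 1.42.0 was an alternative. Correlations and likeness used log2 CPM with a prior count of 2. Positions, transcript lengths and overlaps came from GENCODE vM21 (GRCm38), by symbol, for 24498 genes, and of several RefSeq promoter windows of a gene the nearest to the principal transcript start was used. The fit was tested on simulated data. Descriptions and plots used Python 3.11.15, numpy 2.4.6, pandas 2.3.3 and matplotlib 3.10.9.

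Groups came from the labels, which give no sex, litter or batch, and each replicate is a separate mouse. Pairs of libraries within a genotype were checked for a library deposited more than once, and none was found (chi-square per degree of freedom of 30.4 or more). The members, gene lists and tests were chosen with earlier results of these data known. All members are named. From each list at most 3 genes per direction and comparison are named, those with the lowest adjusted p against WT, and for likeness the 5 genes with the highest Pearson r. The ratios between members were added after their values were seen. No per-sample column was left out. Alternatives were RLE size factors, library totals, other filters, DESeq2, the exact test of edgeR, only the genotypes compared, 13 libraries, robust dispersion, the bias-adjusted deviance of edgeR 4, marker covariates and leaving out each mouse.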

Additional observations from a re-analysis of the deposited data

Results flagged for a closer look

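Of 40 groups of values examined for a single mouse far from the rest, 3 were singled out, and chance alone does so for about 1 in 20. FOS in IL10RAKO mouse 8 was at 9687 CPM, while the other 3 IL10RAKO mice lay between 5958 and 6439 CPM. With WT mouse 11 counted among the WT mice, JUNB in WT mouse 4 was at 7453 CPM, above the other 4, and EGR2 in WT mouse 10 was at 76.2 CPM, below them.

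WT mouse 11, which is outside the main fit, lay above the 4 WT mice tested for 5 members. It had 9027 CPM of FOS, 484.0 CPM of FOSB, 7445 CPM of JUN, 3324 CPM of EGR1 and 7899 CPM of ZFP36. Its ATF3 level of 1750.4 CPM was below the 4 WT mice tested and within the range of the IL10RAKO mice. For JUN and EGR1 its level was further from the knockout mice than any other WT mouse, and for ZFP36 it was inside the range of the IL10RAKO and DKO mice.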

How the results depend on the processing

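With the fibroblast covariate 0 members were called in IL10RAKO and 0 in DKO mice against WT, beside 4 and 5, and the cause was not tested. Under the other 23 alternatives, including DESeq2 and 13 libraries, 3 to 5 members were called in IL10RAKO and 4 to 6 in DKO mice, and none between DKO and IL10RAKO mice. Leaving out each of the 12 mice gave 3 to 4, 4 to 5 and 0 to 0. JUN, EGR1 and EGR2 in both comparisons with WT, and ATF3 in DKO mice, were called in 23 of 24 alternatives and kept their direction in all 24. DUSP1 in IL10RAKO was called in 11 and IER2 in DKO mice in 16 of 24. No paired analysis was possible because the genotypes hold different mice and the labels give no shared litter or batch. The number of mice, 4 per genotype, rather than depth limits these comparisons: the fewest reads of any member in a library tested were 1674.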
